A study of Mus musculus with 4 samples.

Results

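Notch1, Notch2, Notch3, Jag1, Jag2, Rbpj, Hes1, Hey1, Dtx1 and Nrarp are genes of the Notch pathway, and their levels were read in stem and progenitor cells of mouse bone marrow on Affymetrix arrays. The members were all probe sets that the array's annotation table assigns to these 10 genes alone, which gave 20 of the 45037 non-control probe sets. Of these 20, 15 probe sets of 9 genes were past the filter on dim signals, a mean log2 intensity over the 4 arrays above 7.23, which is the median of all probe sets. All 3 probe sets of Jag1, a dim probe set of Notch3 and a dim probe set of Dtx1 were below it.

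Notch receptors are cut when a ligand on a neighbouring cell binds them. The freed intracellular part enters the nucleus, joins the DNA-binding protein RBPJ and turns on genes such as Hes1, Hey1, Dtx1 and Nrarp. In blood formation the pathway is best known for driving progenitors into the T cell lineage in the thymus.

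LSK cells (negative for lineage markers, positive for c-Kit and Sca-1) hold the stem cells and multipotent progenitors, and MP cells (negative for lineage markers and Sca-1, positive for c-Kit) are the myeloid progenitors. WT mice were Smo flox/flox without the Mx1-Cre transgene and Smo-deficient mice were Smo flox/flox with it. Smo encodes Smoothened, the transducer of hedgehog signals, and the Mx1 promoter answers to interferon, so it is not limited to blood cells. All mice of both genotypes were given polyI:C, which induces interferon, in 3 intraperitoneal doses of 20 ug/g, and marrow was taken 6 weeks later. The strain is entered as C57BL/6x129 for the WT LSK sample and as C57BL/6x130, C57BL/6x131 and C57BL/6x132 for the others, and no age is given. Marrow of 4 mice of mixed sex was pooled per genotype before the sort, so there were 4 groups of 1 array from 2 pools. Precision is limited by this number of arrays. LSK and MP of a genotype came from the same pool, yet their strain entries differ, so the entries cannot all be right.

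The labels were checked on the arrays. Smo on probe set 1427049_s_at had log2 intensities of 10.81 in WT LSK, 10.40 in WT MP, 6.13 in Smo-deficient LSK and 6.36 in Smo-deficient MP. On 1427048_at, its brightest probe set, the values in the same order were 10.02, 9.72, 6.96 and 7.94. There the genotype difference was -3.05 in LSK and smaller in MP, at -1.78. Another Smo probe set, 1442215_at, was below the filter. All 6 measured LSK markers (Procr, Mecom, Hlf, Cd34, Flt3 and Meis1) rose in LSK and all 8 myeloid progenitor markers fell. Sca-1 itself, the Ly6a product, had no single-gene probe set in the annotation used here. Pearson correlations between arrays, across probe sets, were 0.980 to 0.994. Of 22518 probe sets past the filter, 3395 passed the LSK against MP test as higher and 1618 as lower in LSK, but the split was 2986 and 2570 once the arrays were quantile normalized.

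**Figure D1:**
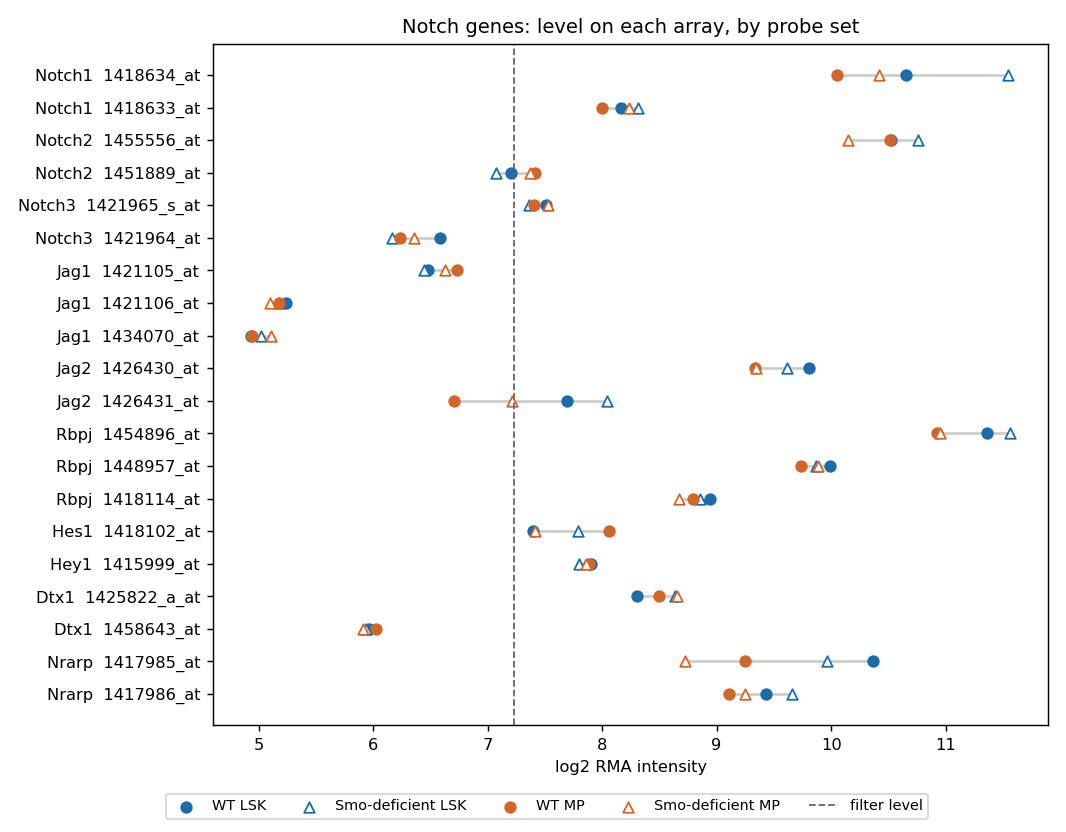
Log2 RMA intensity (horizontal axis) of the 20 Notch probe sets (vertical axis) on each of the 4 arrays; circles are WT, triangles Smo-deficient, blue LSK and orange MP, and the dashed line is the filter level of 7.23. The arrays lie widest apart for Nrarp on 1417985_at, over a range of 1.64, and the 3 Jag1 probe sets stay between 4.93 and 6.73.

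On 1 probe set each, the receptor Notch1, the ligand Jag2, the nuclear factor Rbpj and the target Nrarp were higher in LSK than in MP cells. In each of these genes a single probe set passed, at 1.44-fold (Rbpj) to 2.26-fold (Nrarp). The other probe sets of these genes were 1.09-fold to 1.30-fold higher and did not pass. The comparison asks which genes are enriched in the stem cell fraction, and it was tested with limma with the pool as a block. Of the 15 Notch probe sets past the filter, 4 passed as higher in LSK (26.7%), where 15.1% of all probe sets past the filter did, and 0 passed as lower, where 7.19% did. At an unadjusted p under 0.05, limma had 6 of the 15 higher, against 22.0% of all probe sets, and 0 lower, against 14.1%. By the brightest probe set of each gene, 3 of 9 genes passed, Notch1, Rbpj and Nrarp, against 16.4% of all genes. The median difference was 0.17 on the log2 scale over the 15 probe sets and -0.00 over all probe sets. Both LSK arrays lay above both MP arrays for 8 of the 15 (53.3%), against 30.4% of all, and below for 1, against 26.4%. Within single pools, 1 Notch probe set (Nrarp) was 2-fold higher in LSK in the WT pool, against 2.94% of all, and 2 (Notch1 and Nrarp) were in the Smo-deficient pool, against 3.69%. In a sorted population, more cells of a type and more RNA per cell cannot be told apart.

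With 2 pools of different genotype each probe set has 1 residual degree of freedom until limma moderates it, and its p-values measure how far LSK minus MP differs between the pools, not the spread between mice. Without the pool in the model all 4 calls were lost, with limma adjusted p of 0.0503 for Nrarp, 0.0681 for Jag2, 0.098 for Rbpj and 0.174 for Notch1.

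**Figure D2:**
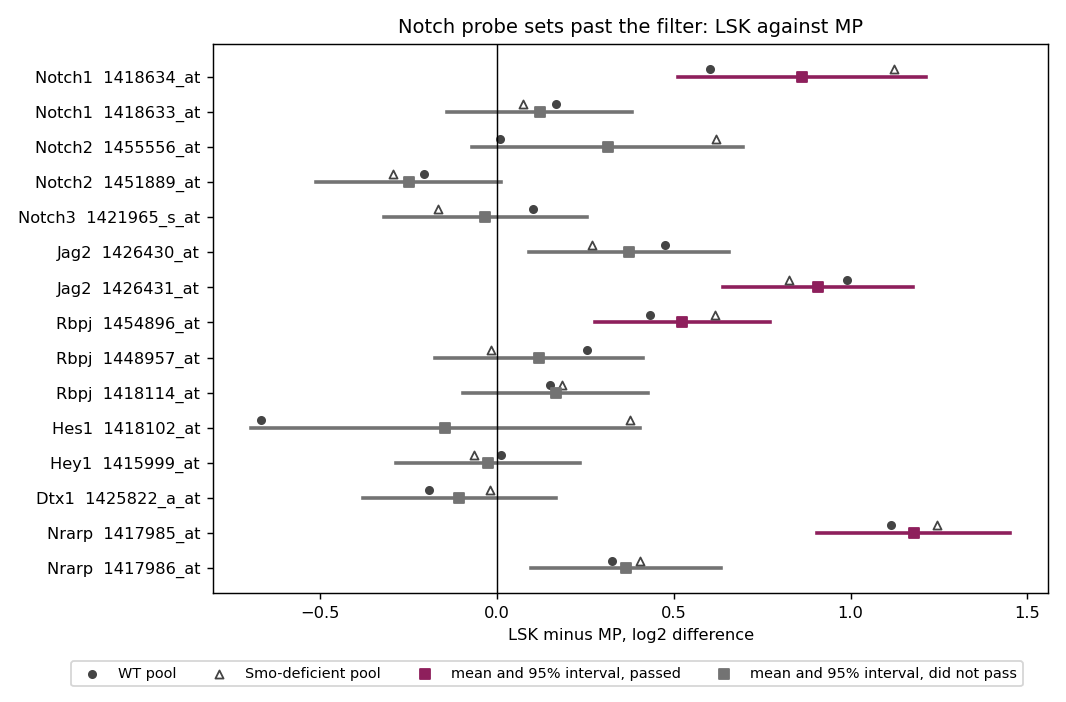
LSK minus MP difference in log2 intensity (horizontal axis) for the 15 Notch probe sets past the filter (vertical axis); squares with bars are the mean of both pools with the 95% interval from limma, and small symbols are the 2 pools. The 4 purple probe sets of Notch1, Jag2, Rbpj and Nrarp passed, and the pools lie farthest apart for Hes1, at -0.67 and 0.38.

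The sequences before the starts of Notch1, Rbpj and Nrarp are shown because these genes rose together in LSK by their brightest probe set. They are the 250 bases upstream of a RefSeq start in GRCm38.p6, printed 5′ to 3′ on the strand of the gene, with matches to TGGGAA, the core of the RBPJ motif, or its reverse complement TTCCCA in capitals.
Notch1, chr2:26503823-26504072, minus strand: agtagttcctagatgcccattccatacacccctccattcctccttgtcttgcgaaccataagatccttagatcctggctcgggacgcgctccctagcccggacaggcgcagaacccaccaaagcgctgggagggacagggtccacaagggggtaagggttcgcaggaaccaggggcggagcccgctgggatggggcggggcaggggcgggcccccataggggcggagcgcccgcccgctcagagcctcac
Rbpj, chr5:53590096-53590345, plus strand: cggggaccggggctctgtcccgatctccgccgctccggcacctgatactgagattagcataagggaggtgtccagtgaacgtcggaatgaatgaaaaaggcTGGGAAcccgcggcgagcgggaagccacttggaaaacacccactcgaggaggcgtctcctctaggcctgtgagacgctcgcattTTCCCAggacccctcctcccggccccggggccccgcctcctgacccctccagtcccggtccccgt
Nrarp, chr2:25180508-25180757, plus strand: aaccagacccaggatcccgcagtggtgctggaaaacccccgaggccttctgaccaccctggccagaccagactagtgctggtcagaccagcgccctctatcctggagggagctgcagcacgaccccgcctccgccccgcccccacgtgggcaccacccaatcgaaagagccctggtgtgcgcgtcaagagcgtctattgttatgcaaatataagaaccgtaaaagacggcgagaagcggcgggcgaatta
The Rbpj window, at a start inside the annotated gene, held TGGGAA beginning 149 bases and TTCCCA beginning 65 bases before that start, and these did not overlap. A further Rbpj window, which overlaps the first, held the same TTCCCA. Windows were found for 8 of the 10 genes, all but Hes1 and Hey1, and 2 of the 9 windows, both of Rbpj, held a match. Of 32851 RefSeq windows of this length, 21.6% held at least 1 match on either strand and 2.77% held 2 or more. A match describes these letters in this window and is not a binding site.

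Among the receptors, Notch1 had the largest difference between populations. Notch1 lies on chromosome 2 at 26457902 to 26503822 (GRCm38.p6, as for the loci below). On 1418634_at its log2 intensity was 10.66 (WT) and 11.54 (Smo-deficient) in LSK and 10.05 (WT) and 10.42 (Smo-deficient) in MP. Both LSK arrays were above both MP arrays, and the Smo-deficient LSK array stood highest. The mean difference was 0.86 ± 0.15 (moderated SE, 2 pools), with a 95% interval of 0.51 to 1.21 and limma adjusted p = 0.00845. It was 0.60 for the WT pool and 1.12 for the Smo-deficient one. The other Notch1 probe set, 1418633_at, had 8.17 (WT) and 8.31 (Smo-deficient) in LSK and 8.0 (WT) and 8.23 (Smo-deficient) in MP, and the populations overlapped. Its mean difference of 0.12, with an interval of -0.14 to 0.38, did not pass (limma adjusted p = 0.466).

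Notch2, a receptor that acts in blood formation outside the thymus as well, did not pass on either probe set. It lies on chromosome 3 at 98013538 to 98150367. On 1455556_at it had 10.52 (WT) and 10.76 (Smo-deficient) in LSK and 10.51 (WT) and 10.14 (Smo-deficient) in MP. The WT arrays were nearly level and the Smo-deficient arrays lay on either side of them. LSK minus MP was 0.01 for the WT pool and 0.62 for the Smo-deficient one. The mean was 0.31 ± 0.16 (moderated SE, 2 pools), with a limma adjusted p of 0.208. On the dimmer 1451889_at both LSK arrays, 7.21 and 7.08, were below the MP arrays, 7.41 and 7.37, with a mean of -0.25 (limma adjusted p = 0.155), so the probe sets of Notch2 differed in sign.

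Notch3, better known from vascular smooth muscle, was near the filter level. It lies on chromosome 17 at 32120820 to 32166896. Its probe set past the filter, 1421965_s_at, had 7.51 (WT) and 7.36 (Smo-deficient) in LSK and 7.41 (WT) and 7.53 (Smo-deficient) in MP, with overlapping populations. The mean difference was -0.03, with an interval of -0.32 to 0.25 and a limma adjusted p of 0.873. A dimmer probe set, 1421964_at, lay between 6.17 and 6.58.

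Of the ligands, Jag2 rose in LSK and Jag1 was dim in every array. Both are membrane proteins that bind Notch receptors on neighbouring cells. Jag2 lies on chromosome 12 at 112907803 to 112929812. On 1426431_at it had 7.70 (WT) and 8.04 (Smo-deficient) in LSK and 6.71 (WT) and 7.22 (Smo-deficient) in MP. Both LSK arrays were above both MP arrays, and the MP values were below the filter level, so the size of the difference depends on the background. It was 0.91 ± 0.11 (moderated SE, 2 pools), with an interval of 0.64 to 1.18 and a limma adjusted p of 0.00271. The pool values were 0.99 (WT) and 0.83 (Smo-deficient). On the brighter 1426430_at the order of populations was the same, with 9.81 and 9.62 in WT and Smo-deficient LSK against 9.33 and 9.35 in MP. There the difference of 0.37, with an interval of 0.09 to 0.66, missed the threshold at a limma adjusted p of 0.0672.

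Jag1 lies on chromosome 2 at 137081451 to 137116520. The probe set 1421105_at had 6.48 (WT) and 6.44 (Smo-deficient) in LSK and 6.73 (WT) and 6.63 (Smo-deficient) in MP, and the other Jag1 probe sets ranged from 4.93 to 5.24. A change in Jag1 could have gone undetected at these levels.

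Rbpj, the DNA-binding partner of the cut receptor, rose in LSK on its brightest probe set. It lies on chromosome 5 at 53555779 to 53657445. On 1454896_at the log2 intensities were 11.36 (WT) and 11.57 (Smo-deficient) in LSK and 10.93 (WT) and 10.95 (Smo-deficient) in MP. The MP arrays were close together and both LSK arrays lay above them. The difference was 0.53 ± 0.10 (moderated SE, 2 pools), with an interval of 0.28 to 0.77 and a limma adjusted p of 0.0146. The other Rbpj probe sets did not pass: 1418114_at had 8.94 and 8.85 in WT and Smo-deficient LSK against 8.79 and 8.67 in MP, a difference of 0.17, and 1448957_at had 9.99 and 9.87 against 9.74 and 9.89, a difference of 0.12 with overlapping populations. Fitted on the mean of a gene's probe sets past the filter, Rbpj had 0.27 ± 0.10 (moderated SE, 2 pools). It missed the threshold there (limma adjusted p = 0.086), while Notch1 (0.49), Jag2 (0.64) and Nrarp (0.77) passed.

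Nrarp, an ankyrin repeat protein that Notch induces and that limits Notch signalling in turn, had the largest difference of the 10 genes. It lies on chromosome 2 at 25180758 to 25183339. On 1417985_at it had 10.36 (WT) and 9.97 (Smo-deficient) in LSK and 9.25 (WT) and 8.72 (Smo-deficient) in MP. Both LSK arrays stood above both MP arrays, and in each population the Smo-deficient array was the lower. The difference was 1.18 ± 0.11 (moderated SE, 2 pools), with an interval of 0.91 to 1.45 and a limma adjusted p of 0.00113. The pool values were 1.11 (WT) and 1.24 (Smo-deficient). On 1417986_at the values were 9.43 and 9.66 in WT and Smo-deficient LSK and 9.11 and 9.25 in MP. That difference of 0.36, with an interval of 0.10 to 0.63, did not pass (limma adjusted p = 0.0614), and there the Smo-deficient array was the higher in each population.

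The other targets did not pass. Hes1, a repressor of the basic helix-loop-helix class that Notch switches on in many tissues, lies on chromosome 16 at 30065357 to 30067796. On its only probe set, 1418102_at, it had 7.40 (WT) and 7.79 (Smo-deficient) in LSK and 8.06 (WT) and 7.41 (Smo-deficient) in MP. WT MP was highest, WT LSK and Smo-deficient MP were lowest and nearly level, and the populations overlapped. LSK minus MP was -0.67 for the WT pool and 0.38 for the Smo-deficient one. The mean was -0.14 ± 0.23 (moderated SE, 2 pools), with an interval of -0.69 to 0.40 and a limma adjusted p of 0.689. The SE of Hes1 was the largest of the 15 probe sets, as the pools lay farthest apart there.

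Hey1, a relative of Hes1 known from heart and vessels, lies on chromosome 3 at 8663359 to 8667038. On 1415999_at it had 7.90 (WT) and 7.80 (Smo-deficient) in LSK and 7.89 (WT) and 7.86 (Smo-deficient) in MP. The 4 values spanned 0.10, the narrowest range of any Notch probe set, and the mean difference was -0.03 with an interval of -0.28 to 0.23 (limma adjusted p = 0.89).

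Dtx1, which encodes the ubiquitin ligase Deltex and is strongly induced by Notch in T cell precursors, lies on chromosome 5 at 120680203 to 120711867. On 1425822_a_at it had 8.30 (WT) and 8.63 (Smo-deficient) in LSK and 8.50 (WT) and 8.65 (Smo-deficient) in MP. The Smo-deficient arrays were nearly level, WT LSK was lowest, and the populations overlapped. The mean difference was -0.10, with an interval of -0.38 to 0.17 (limma adjusted p = 0.549). A dimmer Dtx1 probe set, 1458643_at, lay between 5.91 and 6.02.

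Probe sets of the same gene parted in all 4 Notch genes with a call and several probe sets past the filter, where exactly 1 probe set passed in each. The same was true of 1140 of the 1951 genes on the array with several probe sets past the filter and any call (58.4%), and in 465 (23.8%) all passed. Probe sets of a gene read different stretches of its transcripts, and the stretch that each reads was not analysed here.

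Other genes of the pathway moved in both directions between LSK and MP. Of 65 listed genes, 59 were measured and 49 were past the filter, of which 5 rose and 5 fell in LSK and 39 did not pass, with a median difference of 0.10 against 0.00 over all genes. Over all genes 16.4% rose and 7.54% fell. Without the pool in the model, 1 of the 49 passed as higher and 0 as lower. Mfng, whose fringe enzyme adds sugar to Notch receptors and alters their choice of ligand, was the only one of 5 glycosylation genes to pass. Mfng had 11.19 (WT) and 11.39 (Smo-deficient) in LSK and 9.83 (WT) and 9.97 (Smo-deficient) in MP. The difference was 1.39 ± 0.11 (moderated SE, 2 pools), with a limma adjusted p of 0.00053. Neither Lfng (0.01) nor Rfng (-0.21), the other fringe genes, passed.

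Of 8 measured protease genes, Aph1b rose (0.47) and the gamma-secretase genes Psen2 and Aph1a fell (each -0.52), Aph1b being part of the same membrane complex that frees the intracellular receptor. Other probe sets of Aph1a (-0.12 and 0.14) and of Psen2 (-0.16) did not pass. Of 12 genes of endocytosis and turnover, Neurl1b (0.85), a ubiquitin ligase that acts on ligands, and Dtx3l (0.57) rose, and Dtx4 (-0.94), a relative of Dtx1, fell. Dtx4 had 9.24 (WT) and 9.77 (Smo-deficient) in LSK against 10.07 (WT) and 10.82 (Smo-deficient) in MP, and its other probe set fell too, by 0.45, while the other Dtx3l probe set (0.22) did not pass. Of 14 nuclear cofactors past the filter, the corepressor gene Ctbp2 rose (0.56; 0.40 on a probe set that did not pass) and Rita1, whose product exports RBPJ from the nucleus, fell (-0.45).

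No other receptor or ligand passed. Dll1 (-0.17), Dll4 (-0.27) and Dlk2 (-0.22) were past the filter, and Notch4, Dll3, Dlk1 and Dner were below it on their brightest probe sets. Among 5 other Hes and Hey genes past the filter Hes3 fell (-0.41), from 7.69 and 7.57 in WT and Smo-deficient MP to 7.26 and 7.18 in LSK, close to the filter level. Of the T lineage genes that Notch acts on, Bcl11b (0.15) and Cd3e (-0.06) did not pass, and Ptcra, Gata3 and Il2ra were below the filter and were not tested. Below the filter, Gata3 had the largest difference of these genes, at 1.22 for the WT pool and 1.11 for the Smo-deficient one, with levels of 6.63 and 6.78 in LSK and 5.42 and 5.67 in MP.

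**Figure D3:**
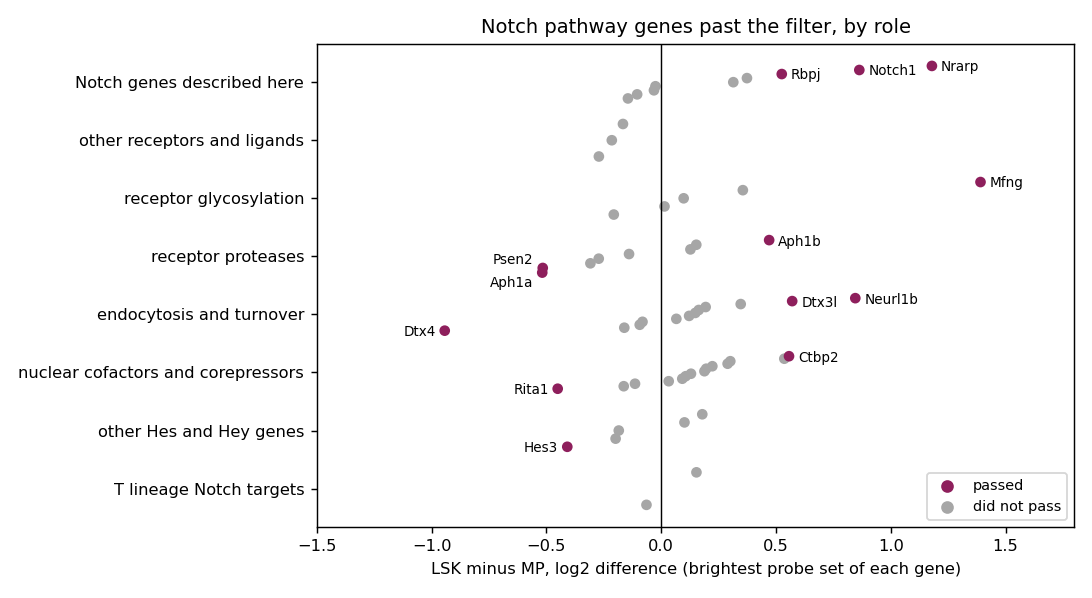
LSK minus MP difference in log2 intensity (horizontal axis), by the brightest probe set, for the Notch genes and 49 other pathway genes past the filter, grouped by role (vertical axis); each point is a gene and purple points passed limma's test. Nrarp and Mfng lie farthest to the right, at 1.18 and 1.39, and Dtx4 lies farthest to the left, at -0.94.

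Markers of other cell types were set beside these differences. Of 8 T cell markers, Cd3d, Cd3g and Cd5 were below the filter. Cd3e (-0.06), Cd4 (-0.02) and Cd8a (-0.16) did not pass between LSK and MP, while Thy1 (2.34) and Lat (0.77) rose in LSK. The log2 summed intensity of the T cell list was 11.74 and 11.73 in WT and Smo-deficient LSK and 11.23 and 11.18 in MP. Megakaryocyte markers were higher in LSK in 7 of 7 cases, where 7736 of all 18193 named genes were higher. Of these markers 6 passed and Pf4 did not (limma adjusted p = 0.0783). The sums were 14.76 and 14.02 against 13.70 and 13.64. Of 7 stroma markers 5 were below the filter, Col1a1, Col3a1, Cxcl12, Lepr and Pdgfra, and Pdgfrb (1.32) rose. The remaining marker, Col1a2, did not pass (limma adjusted p = 0.377), with 1.33 in the WT and -0.39 in the Smo-deficient pool. The stroma list had sums of 11.71 and 11.85 in LSK and 10.70 and 11.07 in MP. Of 8 endothelium markers Cdh5, Emcn and Cldn5 were below the filter, Tek (1.66) rose and Plvap (-0.97) fell, and the sums were 11.63 and 11.53 against 11.60 and 11.38. Their part in the Notch differences was not tested.

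All 15 Notch probe sets past the filter were within 2-fold between genotypes in both populations. The largest differences were a higher Notch1 in Smo-deficient LSK and a lower Hes1 in Smo-deficient MP. This comparison asks what loss of Smo alters in each population, and with 1 array per group there is no replicate check and no p-value. Of the 15 probe sets past the filter 0 were 2-fold in LSK, where 0.595% of all were 2-fold higher and 0.226% lower, and 0 were 2-fold in MP, where 0.280% were higher and 0.360% lower. At 1.5-fold, Notch1 was higher in Smo-deficient LSK, as were 3.06% of all probe sets, with 0 Notch probe sets lower against 0.884% of all. Hes1 was lower in Smo-deficient MP, as were 2.63% of all, with 0 Notch probe sets higher against 2.35%. The median over the 15 was 0.14 in LSK and 0.02 in MP, and over all probe sets it was -0.02 and -0.05.

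For scale, the spread of a genotype difference was taken as the scaled median absolute deviation of that difference in each of 20 bins of probe sets ordered by brightness. Being a spread across probe sets, it holds no replicate error. In LSK 14 of the 15 Notch probe sets were within 2 spreads of 0, and in MP 12 were, against 90.6% and 89.4% of all probe sets past the filter.

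Notch1 on 1418634_at was 1.85-fold higher in Smo-deficient than WT LSK, a log2 difference of 0.89 that was 3.94 times the spread. In MP the difference was 0.37, or 1.49 times the spread. The other Notch1 probe set had 0.14 in LSK and 0.23 in MP, so the sign was shared and the size was not. In the same Smo-deficient LSK array 7 of 7 B cell markers, 8 of 8 macrophage markers, 7 of 7 neutrophil markers and 7 of 8 dendritic cell markers were higher than in WT LSK, and 7 of 7 megakaryocyte markers were lower. From WT to Smo-deficient LSK the log2 sums went from 10.98 to 11.54 for B cells, 11.11 to 11.82 for macrophages, 15.93 to 16.57 for neutrophils, 13.19 to 14.08 for dendritic cells and 14.76 to 14.02 for megakaryocytes. Of the mature erythroid markers 4 of 5 were higher (13.29 to 13.68). All 6 LSK markers were higher as well (14.55 to 15.03), as were 5 of 8 myeloid progenitor markers (15.53 to 15.75). Of the endothelium markers 7 of 8 were lower (11.63 to 11.53). Of the stroma markers 5 of 7 were lower, although their sum went from 11.71 to 11.85. The dendritic cell list shares Flt3 (11.20 to 12.41) with the LSK list, and its Irf8 went from 10.99 to 12.25. For scale, 7860 of all 18193 named genes were higher in Smo-deficient LSK. The part of these cell types in the Notch1 difference was not tested. T cell markers were higher in 5 of 8 cases, with Cd3e at -0.03 and nearly equal sums of 11.74 and 11.73.

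Hes1 was 1.57-fold lower in Smo-deficient than WT MP, a difference of -0.65 that was 3.84 times the spread, and 1.31-fold higher in Smo-deficient LSK, at 0.39 or 1.88 times the spread. The genotype difference in LSK minus that in MP was thus 1.04 for Hes1, and 0.453% of all probe sets had such a difference of at least 2-fold in that direction. It could not be tested with 1 array per group. Hes1 was near the filter level of 7.23, at 7.40 to 8.06 on its only probe set. With a pseudocount of 32 its genotype differences were -0.56 in MP and 0.34 in LSK. Notch2 on 1455556_at showed the same pattern of signs at smaller size, with 0.24 in LSK and -0.37 in MP. Opposite signs with each difference larger than its spread were seen for these 2 of the 15 probe sets and for 2.15% of all. In Smo-deficient MP 6 of 8 dendritic cell markers were higher than in WT MP, with log2 sums going from 13.18 to 13.87. So were 7 of 7 neutrophil markers (16.23 to 16.42), 5 of 7 B cell markers (10.92 to 11.19) and 4 of 8 macrophage markers (11.51 to 11.66). Of the mature erythroid markers 3 of 5 were higher, although their sum went from 14.09 to 13.85, with Tfrc at -0.59. Of the megakaryocyte markers 3 of 7 were higher (13.70 to 13.64). So were 4 of 6 LSK markers (12.83 to 13.36), 5 of 8 myeloid progenitor markers (16.45 to 16.67) and 4 of 8 T cell markers (11.23 to 11.18). Of the endothelium markers 2 of 8 were higher (11.60 to 11.38), and of the stroma markers 2 of 7 (10.70 to 11.07). In the dendritic cell list Flt3, shared with the LSK list, went from 9.94 to 10.89 and Irf8 from 12.27 to 13.12. For scale, 7855 of all 18193 named genes were higher in Smo-deficient MP. The part of these cell types in the Hes1 difference was not tested.

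The remaining targets and ligands gave no shared direction. Nrarp differed by -0.39 in LSK and -0.53 in MP on 1417985_at, the second being 2.09 times the spread, but by 0.22 and 0.14 on 1417986_at. Jag2 differed by 0.35 in LSK and 0.51 in MP on 1426431_at, the second 2.68 times the spread, and by -0.19 and 0.02 on the brighter 1426430_at. For Nrarp the 2 probe sets thus had opposite signs in both populations. Rbpj differed by 0.20 in LSK and 0.02 in MP on 1454896_at, by -0.12 and 0.15 on 1448957_at, and by -0.09 and -0.12 on 1418114_at. Dtx1 was higher by 0.33 and 0.16, Hey1 differed by -0.10 and -0.03, and Notch3 by -0.14 and 0.12. In all, 8 of the 15 probe sets were higher in Smo-deficient LSK and 9 in Smo-deficient MP, and 10 had the same sign in both populations. The share with the same sign was not counted over all probe sets. By brightest probe set and with no filter, 5 of the 10 Notch genes were higher in Smo-deficient LSK and 5 in Smo-deficient MP. Of all 18193 named genes, 7860 and 7855 were.

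**Figure D4:**
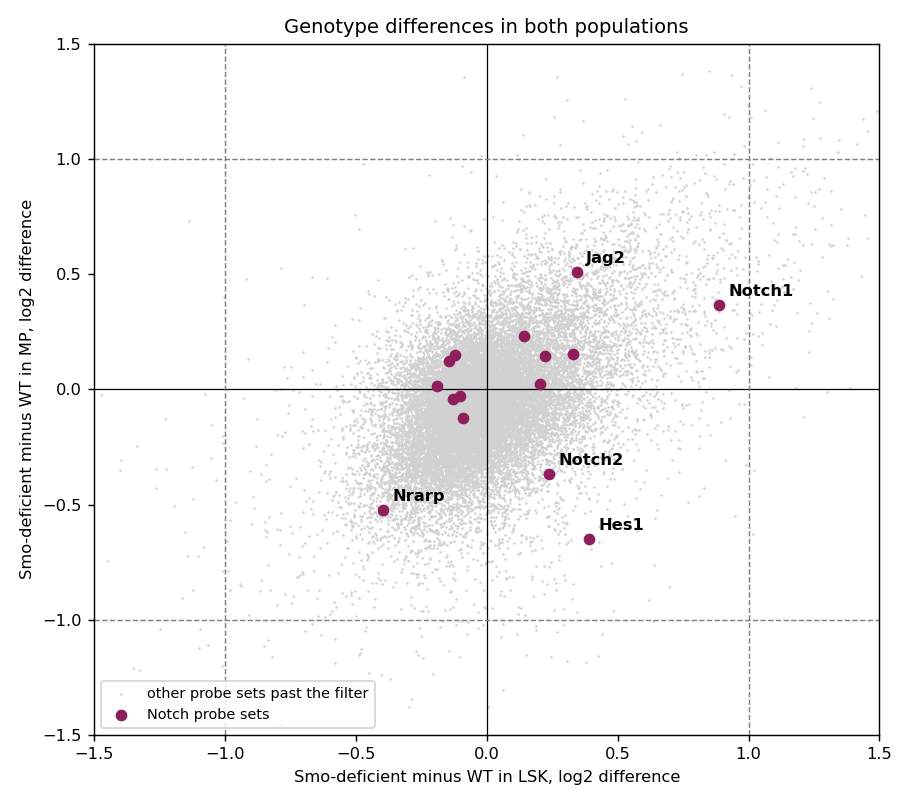
Smo-deficient minus WT difference in log2 intensity in LSK (horizontal axis) and in MP (vertical axis) for the 15 Notch probe sets past the filter (purple) and for other probe sets within the axes (grey); dashed lines mark 2-fold. All purple points lie inside the dashed lines, Notch1 lies farthest to the right at 0.89 and Hes1 lowest at -0.65.

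The rest of the pathway was also within 2-fold between genotypes. None of the 49 other pathway genes past the filter reached 2-fold on its brightest probe set in LSK, where 0.689% of all genes were higher and 0.260% lower, or in MP, where 0.269% were higher and 0.294% lower. Their differences ran from -0.32 to 0.62 in LSK and from -0.64 to 0.75 in MP, with medians of 0.01 and 0.02. Mfng, the gene with the largest LSK enrichment in the pathway, differed by 0.20 in LSK and 0.14 in MP.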

How the data were processed

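Expression was measured in 4 samples (WT and Smo-deficient, LSK and MP) on Affymetrix arrays, from 20 ng of input RNA per sample. The authors deposited intensity values made with RMA, per the submitters' processing notes; the sources used here give no software version or settings. Values were read as linear intensities, since they are far too large for a log2 scale, and were turned to log2 with no pseudocount. RMA commonly draws arrays to a common distribution, which can remove a change shared by most genes. The deposited values did not fully share a distribution. Their medians were 149.1 to 150.3. The upper quartiles were 591.5 (WT) and 609.7 (Smo-deficient) in LSK against 563.9 (WT) and 543.1 (Smo-deficient) in MP. The array's annotation table gave 1 gene to 34945 of 45037 non-control probe sets, and all 10 Notch genes matched RefSeq by Entrez identifier. Probe sets with a mean above the 50th percentile were kept, which left 22518 probe sets, those of 11904 named genes among them.

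LSK was tested against MP with limma 3.58.1 in R 4.3.3 (lmFit, eBayes with trend, two-sided, Benjamini-Hochberg over all 22518, threshold 0.05), with the pool as a block because both populations were sorted from the same mice. The script was tested on simulated data. Genotype was compared within each population by differences of log2 intensity, with 2-fold as the threshold and no test. A gene in a list was read by its brightest single-gene probe set. All Notch probe sets are reported, and of other pathway genes up to 3 per role that passed with the largest difference, those 2-fold by genotype, and the members of small counts, named after their values were seen. The members and lists were chosen with earlier results of these data known. Alternatives covered the block, filter, normalization, pseudocount, threshold and each pool alone.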

Additional observations from a re-analysis of the deposited data

Results flagged for a closer look

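Hes1 on 1418102_at and Notch2 on 1455556_at had genotype differences of opposite sign in the populations, each larger than its spread. For Hes1 the log2 difference, Smo-deficient minus WT, was 0.39 in LSK and -0.65 in MP. For Notch2 it was 0.24 in LSK and -0.37 in MP. The difference between the populations was not tested, since each value stands on 1 array against 1 array. The other Notch2 probe set had -0.13 and -0.04. The only Hes1 probe set was near the filter level of 7.23, at 7.40 to 8.06.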

How the results depend on the processing

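The 4 calls of Notch1, Jag2, Rbpj and Nrarp were kept under 6 of 7 refits: 2 other filters, quantile normalization, cyclic loess, eBayes without trend and a pseudocount of 32. Across the 7 their differences ran from 0.80 to 0.86, 0.76 to 0.95, 0.47 to 0.53 and 1.08 to 1.18. Without the pool as a replicate block, 0 Notch probe sets passed as higher, and of the other pathway genes 1 passed as higher and 0 as lower. That fit counts differences between the pools as error, and over all probe sets it passed 918 as higher and 140 as lower, against 3395 and 1618 with the block. With no filter, 6 pathway genes passed as higher and 3 as lower, with more probe sets adjusted over. Of all 45037 probe sets 3819 passed as higher and 1656 as lower at that setting. By 2-fold in the WT pool alone, 1 Notch probe set and 1 pathway gene were higher in LSK and 0 pathway genes lower, and in the Smo-deficient pool alone 2, 1 and 1. At 1.5-fold, 1 Notch probe set was higher in Smo-deficient LSK and 1 was lower in Smo-deficient MP. Notch3 on 1421965_s_at reversed to 0.01 under cyclic loess, where the cause was not tested. No genotype difference of a Notch probe set moved by more than its spread under the 3 alternatives that change values. Jag1 and the dim probe sets were limited by signal near the background. A single array was not left out, since that breaks a pool pair.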
